A study of Mus musculus with 21 samples.

Results

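The baseline transcriptome of control LacZ fibroblasts was described from 3 RNA-seq libraries, out of 21 samples in the series and 12 RNA libraries of the LacZ and GCN5 lines. The libraries were chosen by their labels alone, with no measured value, and no other group was set against them. The cells were immortalised mouse embryonic fibroblasts (MEFs), Hsf1 WT by genotype, which stably expressed LacZ, a bacterial beta-galactosidase used as a neutral control protein. They had been given 10 nM control siRNA for 2 days and were grown in glucose-rich medium with bovine serum, and ERCC spike-in RNA, mix 1, was added after extraction. The series as a whole asks how HSF1, the main heat shock transcription factor, affects transcription driven by c-MYC, and these cells are one of its control groups. The labels call the libraries triplicates without saying that they came from separate cultures, so each standard deviation (SD) given here is the spread between these 3 libraries, which may be technical. How the line was immortalised, and whether it is a single clone, is not given in the sources used here.

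Fibroblasts are the mesenchymal cells that build and remodel connective tissue. They secrete fibrillar collagens, fibronectin and proteoglycans, anchor to them through integrins, and pull on them with actin and myosin. In culture with serum they divide, and continuous division goes with high expression of the translation machinery, glycolytic enzymes and DNA replication factors. Escape from senescence in mouse fibroblasts is classically tied to the Cdkn2a and Trp53 (p53) genes. Transcription factors are usually transcribed at far lower levels than the structural and metabolic proteins they control.

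Each library held between 7314882 and 8066371 gene counts, over 41608 genes. Levels are given as FPKM, the number of fragments per 1000 bases of gene and per megacount of the library. Genes can be set side by side only as far as their listed lengths fit. For some genes the listed length exceeds the span from gene start to gene end, which lowers the FPKM. Jund has 5756 bases for positions 70697739 to 70700616, and Hspa1b has 8653 bases for positions 34956429 to 34959238. A gene with 3 counts, the floor used here, would read 0.183 to 0.203 FPKM if it were 2000 bases long. Such floors, and the intervals given further on, cover counting error only. The 3 libraries were alike in the order of their genes, with Spearman's rho between 0.985 and 0.990 over the 10701 expressed genes of each pair. That figure is a description across genes of libraries that share a cell line. Library 2 differed from the others by gene length. Its expressed protein-coding genes under 1000 bases had a median of 1.18 times the mean of the other libraries, and those of 4000 bases and more had a median of 0.920 times.

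A gene was counted as expressed when it reached 1 FPKM in each of the 3 libraries. By that rule 10701 of 41608 genes (25.7%) were expressed, among them 9800 of 22002 protein-coding genes (44.5%). That 44.5% is the background for counts of expressed members of protein-coding gene lists given further on. No count was recorded in any library for 21629 genes. The median level was 11.9 FPKM over the expressed protein-coding genes and 0.376 FPKM over all protein-coding genes.

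The levels were spread very unevenly. By mean level over the libraries, 5499 genes lay between 1 and 10 FPKM, 5016 between 10 and 100, 648 between 100 and 1000, and 41 at 1000 FPKM or more. Those 41 genes held 22.3% of the summed FPKM. The 10 highest genes together held 12.7% ± 0.39 of the summed FPKM (SD, n = 3), the 100 highest 32.2% ± 0.96, and the 1000 highest 65.2% ± 1.32. The 374 highest genes were enough to make up 50% of it. Genes of the top class were short, with a median length of 938.5 bases among the protein-coding ones, against 4436 bases in the class from 1 to 10 FPKM. In counts, which are not divided by length, the 100 highest genes held 18.6% ± 1.15.

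Protein-coding genes carried 90.6% ± 0.46 of the summed FPKM (SD, n = 3), with 90.4%, 90.2% and 91.1% in libraries 1, 2 and 3. Pseudogenes came next with 7.52% ± 0.46, and 487 of their 4428 entries were expressed. Most of that share belonged to Rn18s-rs5, an entry on chromosome 17 named after 18S ribosomal RNA, the RNA of the small ribosomal subunit. It held 67.8% of the FPKM of all pseudogene entries. Ribosomal protein pseudogenes, the numerous reverse-transcribed copies of ribosomal protein mRNAs, made up 201 of the 586 expressed pseudogene entries of both kinds. Reads shared with their parent genes make the level of each such copy uncertain. Long noncoding RNAs were the largest class by number after protein-coding genes. Of these, 190 of 11663 (1.63%) were expressed, and together they held 0.647% ± 0.0054 of the summed FPKM. Among small RNA classes, 62 of 123 small nucleolar RNAs, 27 of 1187 microRNA entries and 10 of 426 tRNA entries passed the rule for expressed genes. In genes this short very few counts reach 1 FPKM, so these numbers cannot be compared with those of mRNAs. In counts the classes held 0.0132%, 0.00543% and 0.00339% on average, in the same order. Whether the library kit selected polyadenylated RNA or removed ribosomal RNA is not given in the sources used here for these libraries.

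The 10 highest entries that are not protein-coding after their biotype were led by Rn18s-rs5, with 23252, 25929 and 20833 FPKM in libraries 1, 2 and 3. The mitochondrial large ribosomal RNA mt-Rnr2 followed at 588 ± 48.7 FPKM (SD, n = 3) and the small one, mt-Rnr1, was at 357 ± 42.6 FPKM. Snora2b, a small nucleolar RNA of 112 bases, read 494, 428 and 519 FPKM. The pseudogenes Rpl32p, Gm10123, Gm11808, Gm9794 and Gm10275 lay between 329 and 455 FPKM. The highest long noncoding RNA was 2410006H16Rik, at 289, 321 and 266 FPKM, and all of its libraries lay above those of Snhg1, a host of small nucleolar RNAs, at 217, 264 and 212 FPKM.

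Translation and respiration supplied most of the most abundant transcripts. Among the 30 highest genes, 13 encoded cytosolic ribosomal proteins and 4 were mRNAs of the mitochondrial genome. None was annotated as a transcription factor, a collagen or a glycolytic enzyme. COX1, a core subunit of cytochrome c oxidase, stood second at 6815, 6440 and 6449 FPKM. Eef1a1, the elongation factor that delivers aminoacyl-tRNA to the ribosome, ranked 3 with 4397, 4662 and 4361 FPKM. Its level overlapped with neither of its neighbours in the order. ND1, a subunit of respiratory complex I, had 3900, 3945 and 3713 FPKM, and overlapped with Ftl1, the light chain of the iron store ferritin, at 3561, 4255 and 3400 FPKM. CYTB, the cytochrome b of complex III, came next at 3614, 3574 and 3401 FPKM.

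Below them, Lars2, the leucyl-tRNA synthetase of mitochondria, read 3179, 3030 and 2674 FPKM. Rpl8, a protein of the large ribosomal subunit, averaged 2426 ± 337 FPKM and Rplp1, a protein of the ribosomal stalk, 2281 ± 245 FPKM (SD, n = 3). Lgals1, the secreted lectin galectin-1, averaged 2168 ± 238 FPKM, and S100a6, a calcium-binding protein common in fibroblasts, 1829 ± 388 FPKM. Also among the 30 highest were the ribosomal proteins Rplp0, Rpl41, Rps3a1, Rpl12, Rpl13, Rps23, Rpl19 and Rpl23a, ND2 of complex I and the calcium-binding protein S100a11, between 1267 FPKM for Rpl23a and 2007 FPKM for Rplp0 on average. Of the 29 pairs of neighbours among the 30 highest genes, 25 had overlapping ranges over the libraries, so most of this order is not resolved by 3 libraries. The 10 highest genes were nevertheless the 10 highest in each library, and 28 of the 30 highest were in the top 30 of every library.

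**Figure D1:**
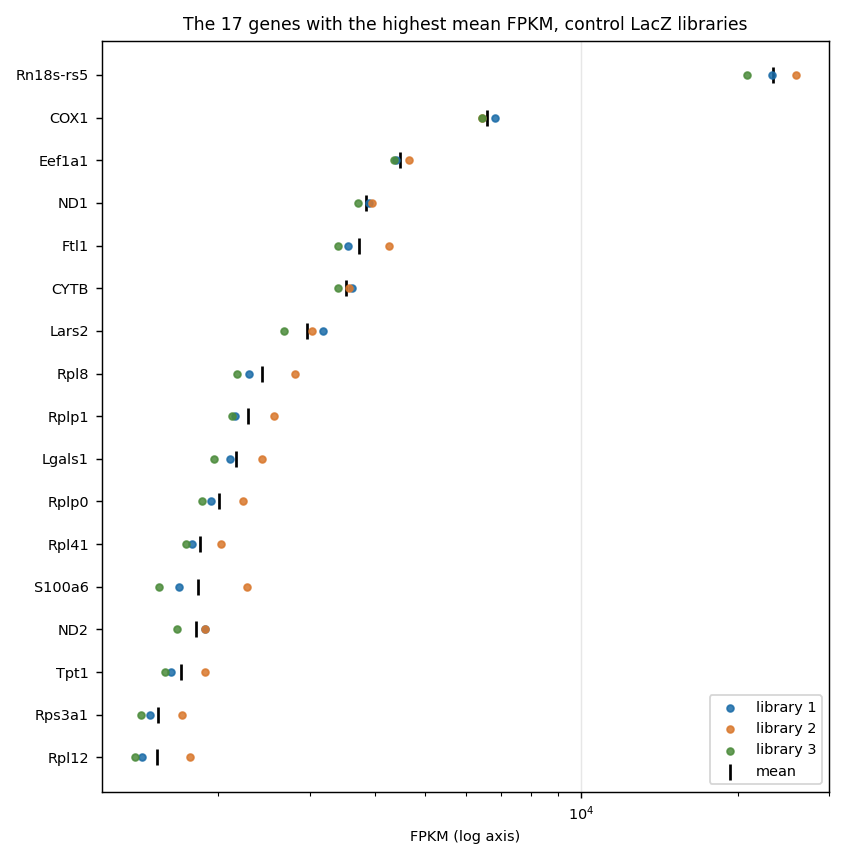
The 17 genes with the highest mean FPKM, on a log axis, with 1 point for each of the 3 control LacZ libraries and a bar at their mean. Rn18s-rs5 stands apart near 23338 FPKM, while neighbours from Rpl8 downwards overlap, and library 2 is the highest for each ribosomal protein shown.

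Genes often taken as housekeeping references differed widely in the level listed. Actg1 and Actb, the cytoplasmic actins, read 1431, 1555 and 1485 FPKM and 1289, 1387 and 1346 FPKM, and Actb ranked 23. Hsp90ab1 and Hspa8, the constitutive cytosolic HSP90 and HSP70 chaperones, averaged 1309 ± 23.0 and 1267 ± 39.6 FPKM (SD, n = 3). Tpt1, a translationally controlled growth-related protein, averaged 1696 ± 165 FPKM. Gapdh, a glycolytic enzyme often taken as a loading control, read 10.8, 11.3 and 12.3 FPKM. The deposited table matches 96 other entries to the GAPDH protein, 95 of them pseudogenes, with summed levels of 98.4, 94.6 and 95.1 FPKM. How reads shared between these entries and Gapdh were counted is not given in the sources used here, so the level of Gapdh is uncertain.

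The start regions of 4 genes are shown, since they span the kinds of abundant gene met here: a translation factor, a folding enzyme with a processed copy, an intermediate filament and a fibrillar collagen. The sequences are the 250 bases before the annotated start in RefSeq on GRCm38.p6, read 5′ to 3′ on the gene's strand. Capitals mark 3 short motifs in either orientation. The TATA box core is TATAAA. The GC box is GGGCGG. The CCAAT box is named by its letters. Eef1a1 lies at chr9:78481725-78481974 on the minus strand, Ppia at chr11:6415617-6415866 on the plus strand, Vim at chr2:13574061-13574310 on the plus strand and Col1a2 at chr6:4505368-4505617 on the plus strand.
Eef1a1: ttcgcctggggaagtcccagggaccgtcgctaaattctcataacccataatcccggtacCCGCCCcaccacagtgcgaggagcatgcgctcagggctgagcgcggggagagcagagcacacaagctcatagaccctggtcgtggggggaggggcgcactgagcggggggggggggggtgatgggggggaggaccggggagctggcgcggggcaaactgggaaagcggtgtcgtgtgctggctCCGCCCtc
Ppia: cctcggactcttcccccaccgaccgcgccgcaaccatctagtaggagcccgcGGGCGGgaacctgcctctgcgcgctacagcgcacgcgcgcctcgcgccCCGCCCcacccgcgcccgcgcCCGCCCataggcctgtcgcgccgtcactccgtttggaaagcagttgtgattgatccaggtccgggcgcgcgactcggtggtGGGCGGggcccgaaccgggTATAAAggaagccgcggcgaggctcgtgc
Vim: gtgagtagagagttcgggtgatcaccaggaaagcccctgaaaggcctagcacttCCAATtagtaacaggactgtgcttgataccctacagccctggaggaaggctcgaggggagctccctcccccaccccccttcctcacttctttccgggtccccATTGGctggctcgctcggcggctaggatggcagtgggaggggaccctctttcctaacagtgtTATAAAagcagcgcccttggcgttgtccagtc
Col1a2: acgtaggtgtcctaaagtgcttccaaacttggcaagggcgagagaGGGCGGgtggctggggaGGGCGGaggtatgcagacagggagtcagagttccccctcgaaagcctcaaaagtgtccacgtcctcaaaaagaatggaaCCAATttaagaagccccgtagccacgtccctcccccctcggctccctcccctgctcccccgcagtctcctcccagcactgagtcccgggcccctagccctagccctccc

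TATAAA begins at position -29 in Ppia and at position -32 in Vim, counted from the start site, and was not found in the windows of Eef1a1 and Col1a2. GGGCGG was found 4 times in Ppia, 2 times each in Eef1a1 and Col1a2, and not in Vim, whose window holds CCAAT 2 times. Over both strands, 16.4% of the 67 promoters available for the 100 highest protein-coding genes held TATAAA, against 5.76% of 7881 promoters of other expressed genes, 17.8% of 9320 promoters of genes not expressed and 12.3% of all 17268 promoters. For the 300 highest genes the share was 12.9%. Fewer held TATAAA on the gene's strand in a short stretch near the start, which includes the matches of Ppia and Vim. These were 4 of the 67 promoters (5.97%), 0.964% of other expressed genes, 4.40% of genes not expressed and 2.84% of all. GGGCGG was present in 53.7% of the promoters of the 100 highest genes, 63.6% of those of other expressed genes, 25.7% of those not expressed and 43.1% of all. CACGTG, an E-box that MYC and related factors can bind, was present in 13.4%, 9.01%, 4.72% and 6.71% in the same order. CCAAT was present in 41.8%, 37.5%, 35.5% and 36.4%, the smallest spread of the 4 motifs. The median GC content was 58.8% for the 100 highest genes, 60.4% for other expressed genes, 50% for genes not expressed and 55.6% for all promoters. A match is a description of letters, not of a bound site.

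The machinery of protein synthesis was complete. All 82 cytosolic ribosomal protein genes were expressed, at a median of 621 FPKM, and 76 of them reached 100 FPKM. Together they held 13.6%, 14.9% and 13.1% of the summed FPKM of libraries 1, 2 and 3. In counts the share was 5.22% ± 0.57 (SD, n = 3), since these genes are short. Their median ratio to the mean of the other libraries was 1.23 in library 2, against 0.941 in library 1 and 0.859 in library 3, which goes with the length difference of library 2 and whose part in it was not tested. The lowest members were Rpl10a at 25.9 FPKM and Rpl21 at 49.8 FPKM, for which copies elsewhere in the genome make the level uncertain.

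All 35 translation factors were expressed as well, at a median of 143 FPKM. After Eef1a1 and Tpt1 came Eef2, the translocation factor, at 857, 864 and 891 FPKM, and Eef1g, a subunit of the elongation factor complex, at 563, 648 and 542 FPKM. Eif4a1, the helicase that unwinds mRNA leaders, averaged 570 ± 32.2 FPKM. The cap-binding protein gene Eif4e read 21.9 ± 1.27 FPKM, and Eif5a, the lowest member, 6.43, 4.54 and 3.89 FPKM.

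Glycolytic genes were all expressed, 22 of 22, at a median of 45.6 FPKM. Pkm, pyruvate kinase, read 1065, 1116 and 1106 FPKM, and Tpi1, triose phosphate isomerase, averaged 907 ± 62.4 FPKM (SD, n = 3). Pgk1, phosphoglycerate kinase, and Ldha, lactate dehydrogenase A, were level with each other at 855 ± 53.8 and 854 ± 58.9 FPKM. Slc2a1, the main glucose transporter of fibroblasts, averaged 56.7 ± 1.77 FPKM. Hexokinase 1 (Hk1) averaged 34.4 ± 2.27 FPKM and its isoform Hk2 6.76 ± 0.36 FPKM, with no overlap over the libraries.

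Genes of protein folding and turnover were high. Of 30 chaperones 27 were expressed, at a median of 222 FPKM over all members. Most are cytosolic or of the ER, but the list also holds the mitochondrial Hspd1, Hspe1 and Hspa9. Calr, the calcium-binding lectin chaperone of the ER, read 529, 587 and 521 FPKM, and Hspa5, the ER HSP70, 464, 496 and 467 FPKM. The stress-inducible HSP70 genes had almost no reads assigned: Hspa1a was listed at 0 in every library, and Hspa1b read 0.0156, 0.0288 and 0.0422 FPKM. As a near-identical pair they share reads, so each value is uncertain and does not show that the genes were silent. Their listed lengths, 8615 bases for Hspa1a and 8653 for Hspa1b, also exceed their spans from start to end. Hspb1, the small heat shock protein, averaged 51.3 ± 3.04 FPKM. The proteasome and ubiquitin list had 32 of 33 members expressed at a median of 146 FPKM, led by Ubb at 578 ± 37.3 and the proteasome subunits Psmb4 at 371 ± 40.9, Psmc5 at 291 ± 25.7 and Psmb3 at 277 ± 20.4 FPKM.

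Iron and redox genes followed Ftl1. Fth1, the heavy chain of ferritin, averaged 715 ± 63.4 FPKM, Sod1, cytosolic superoxide dismutase, 526 ± 73.0 FPKM and Prdx1, a peroxiredoxin, 459 ± 39.7 FPKM (SD, n = 3). In all, 22 of 23 were expressed. The exception was Slc7a11, the cystine importer, at 0.82, 0.677 and 0.916 FPKM.

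Of 37 collagen genes 18 (48.6%) were expressed, beside 44.5% of all protein-coding genes, and 3 reached 100 FPKM. Both chains of type I collagen were among them, with Col1a2 at 263, 259 and 283 FPKM and Col1a1 at 202, 200 and 230 FPKM. The lowest library of Col1a2 lay above the highest of Col1a1. Col6a1, of the microfibrillar type VI collagen, read 109, 103 and 115 FPKM, and Col4a1, of basement membrane collagen, 81.0, 75.6 and 83.2 FPKM. Type V collagen, which nucleates type I fibrils, averaged 54.5 ± 1.98 FPKM for Col5a2 and 34.3 ± 2.92 FPKM for Col5a1. Type III collagen, a fibrillar collagen abundant in many connective tissues, was low, with Col3a1 at 1.68, 1.90 and 1.99 FPKM. Of the cartilage collagens, Col11a1 was expressed, at 1.06, 1.19 and 1.26 FPKM, while Col9a3 averaged 0.318 and Col2a1 0.0998 FPKM, and Col9a1 and Col9a2 were listed at 0.

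Genes of collagen processing and cross-linking, which include enzymes and other proteins, were nearly all present, with 21 of 22 expressed at a median of 30.5 FPKM. P4hb, the shared subunit of prolyl 4-hydroxylase and a disulfide isomerase, averaged 702 ± 38.0 FPKM. Serpinh1 (HSP47), the collagen chaperone of the ER, read 422, 426 and 425 FPKM, Pcolce, an enhancer of procollagen processing, 254, 274 and 260 FPKM, and Ppib, cyclophilin B, averaged 102 ± 9.17 FPKM. Lox, the lysyl oxidase that starts collagen cross-links, averaged 38.4 ± 0.54 FPKM. Adamts2, an N-propeptidase of procollagen, was the member below 1 FPKM, at 0.204, 0.153 and 0.350 FPKM.

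Of the other matrix proteins, 26 of 39 were expressed, beside 44.5% of all protein-coding genes, at a median of 19.6 FPKM over all members. Spp1 (osteopontin), a secreted adhesive phosphoprotein, led with 633, 685 and 619 FPKM. Sparc, a collagen-binding glycoprotein, read 449, 436 and 469 FPKM, and Ccn1, a matricellular target of the YAP and SRF pathways, 367, 394 and 399 FPKM. Fn1, fibronectin, the fibrillar scaffold protein of fibroblast matrix, read 237, 170 and 253 FPKM and ranked 277 of all genes. Library 2 was the lowest of the 3 for Fn1, and its rank moved between 235 and 314 as each library was left out in turn. Eln (elastin), Lum (lumican) and Igfbp3 were among 6 matrix genes listed at 0, and Postn (periostin) averaged 0.0615 FPKM.

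Proteases that turn matrix over were expressed in 20 of 25 cases, at a median of 24.3 FPKM. The lysosomal cathepsins Ctsd and Ctsb averaged 253 ± 16.1 and 125 ± 1.22 FPKM, and the metalloproteinase inhibitors Timp2 and Timp1 178 ± 8.78 and 177 ± 15.9 FPKM (SD, n = 3). Mmp2 and Mmp14, a gelatinase and its membrane-bound activator, were at 59.7 ± 1.20 and 55.3 ± 2.23 FPKM. Mmp3, Mmp9 and Mmp13, which are inducible in fibroblasts, averaged between 1.59 and 1.68 FPKM.

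The actin cytoskeleton list had 37 of 39 members expressed, 22 of them at 100 FPKM or more. After the actins came Cfl1 (cofilin), which severs actin filaments, at 993, 1127 and 1013 FPKM, and Vim (vimentin), the intermediate filament of mesenchymal cells, at 956, 1077 and 932 FPKM. Some contractile genes typical of myofibroblasts were low: Acta2, smooth muscle actin, read 3.91, 4.26 and 4.16 FPKM, Cnn1 averaged 0.138 FPKM and Tagln was listed at 0. The related Tagln2 read 445, 497 and 458 FPKM. Other genes of contraction were higher, with Myl6 at 543, Cald1 at 117 and Smtn at 15.7 FPKM on average, so contractile genes were not low as a group. Tubulins were expressed in 11 of 16 cases, beside 44.5% of all protein-coding genes. Tuba1b was at 681 ± 23.8, Tuba1a at 528 ± 14.1, Tubb4b at 265 ± 10.9 and Tuba1c at 216 ± 15 FPKM.

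Of 26 integrin genes, 11 were expressed, a share near the 44.5% of all protein-coding genes. Itgb1, the beta subunit shared by most matrix receptors, read 214, 215 and 210 FPKM. Its partner Itga5, which with it forms the fibronectin receptor, averaged 57.5 ± 1.10 FPKM, and Itga3, of a laminin receptor, 51.0 ± 2.96 FPKM, with all libraries of Itga5 above those of Itga3. Itgb5, a beta subunit of vitronectin receptors, averaged 38.1 ± 1.86 FPKM. The collagen receptor subunits Itga1, Itga2 and Itga11 were at 0.523, 1.79 and 0.119 FPKM on average.

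**Figure D2:**
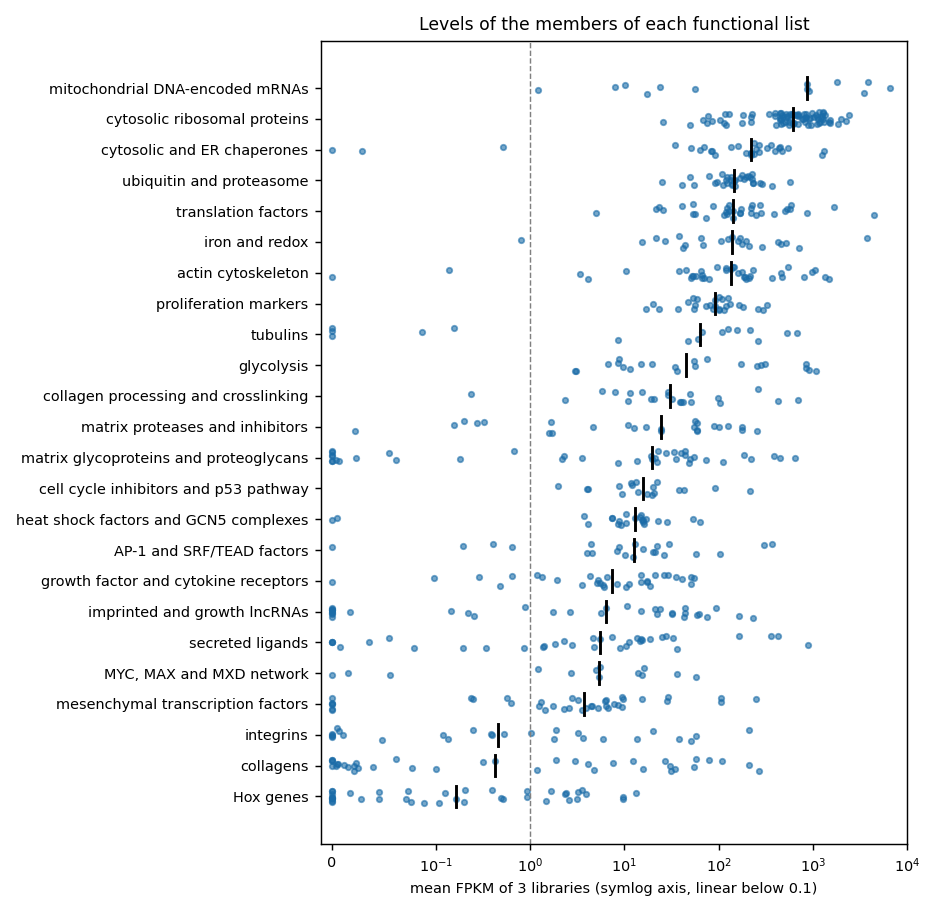
Mean FPKM over the 3 libraries for each member of the 24 functional lists, on an axis that is linear below 0.1 and logarithmic above, with the median of each list as a black bar and the 1 FPKM threshold dashed. Ribosomal proteins cluster around 621 FPKM, mRNAs of the mitochondrial genome fall into a high and a low set, and collagens, integrins and Hox genes have medians under 1 FPKM with a few high members.

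Secreted ligands ranged widely, and 24 of 35 were expressed, beside 44.5% of all protein-coding genes. Chemokines led them: Ccl2, which attracts monocytes, read 881, 950 and 863 FPKM, Cxcl1, which attracts neutrophils, 403, 433 and 433 FPKM, and Ccl7 346, 402 and 345 FPKM. Csf1, the macrophage growth factor, averaged 165 ± 14.4 FPKM (SD, n = 3). Il6 was at 2.13, 3.60 and 2.56 FPKM. Vegfa, the angiogenic factor, averaged 32.7 ± 0.47 FPKM, Tgfb1 15.1 ± 0.27 FPKM and Fgf7, a mesenchymal factor acting on epithelia, 24.9 ± 1.45 FPKM. The insulin-like growth factors Igf1 and Igf2 were near 0, at 0.0792 and 0.00832 FPKM on average.

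Receptors spanned a narrower range than the ligands. Of 32, 27 were expressed, and none reached 100 FPKM. Tnfrsf1a, the main receptor for tumour necrosis factor, read 55.0, 55.4 and 54.8 FPKM. Ifngr2, a chain of the interferon gamma receptor, and Il6st (gp130), the signalling chain of the IL-6 family, both averaged 50.8 FPKM, with SDs of 0.71 and 8.19. Met, the receptor for hepatocyte growth factor, averaged 40.9 ± 3.88 FPKM. Pdgfrb and Pdgfra, the platelet-derived growth factor receptors that mark fibroblasts, averaged 6.45 ± 0.95 and 4.29 ± 0.32 FPKM.

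The cells expressed the full set of 27 proliferation markers, at a median of 92.3 FPKM. Cdk4, a kinase of the G1 phase, read 311, 348 and 310 FPKM, Pcna, the replication clamp, 286, 321 and 277 FPKM, Top2a, topoisomerase II alpha, 270, 248 and 272 FPKM, and Stmn1, a microtubule destabiliser, 174, 206 and 161 FPKM. Mki67 averaged 53.2 ± 7.37 FPKM (SD, n = 3).

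The cell cycle inhibitor and p53 list was expressed in all of its 18 members, at a median of 15.6 FPKM. Cdkn2a, the locus of p16 and ARF, was the highest with 199, 239 and 212 FPKM. Trp53 read 89.9, 92.8 and 95.3 FPKM, Ccng1, a p53 target, averaged 43.4 ± 1.03 FPKM and Bax, a pro-apoptotic p53 target, 37.7 ± 2.30 FPKM. Cdkn1a (p21), a p53 target that stops the cycle, averaged 20.0 ± 2.44 FPKM, and Mdm2, the p53 ubiquitin ligase, 13.9 ± 0.26 FPKM. A gene total does not separate the p16 and ARF transcripts, and these levels do not show whether the encoded p53 is intact.

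The factors that the series is about were well measured. Hsf1 read 53.2, 53.3 and 55.5 FPKM, and the highest other heat shock factors were Hsf4 at 10.3 ± 0.68 and Hsf2 at 4.14 ± 0.57 FPKM. Hsf3 was listed at 0. Kat2a, the gene of the acetyltransferase GCN5, read 63.5, 63.4 and 64.7 FPKM, above its paralogue Kat2b at 14.8, 14.1 and 14.5 FPKM. Of the complex members around GCN5, Wdr5 averaged 28.0 ± 1.89 and Taf5l 22.6 ± 1.09 FPKM, and 21 of the 23 genes on the list were expressed at a median of 12.9 FPKM.

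Myc led its own network at 53.5, 58.6 and 60.4 FPKM. Mlx, a Max-like protein that pairs with part of the MXD family, came next at 37.0, 36.0 and 35.8 FPKM. Max, the obligate partner of Myc, averaged 16.3 ± 0.31 FPKM (SD, n = 3). The antagonists Mxd3 and Mxd4, which compete for Max, were at 15.5 ± 2.46 and 13.8 ± 1.73 FPKM. Mxd3 overlapped with Max over the libraries, while all libraries of Mxd4 lay below those of Max. Mycl and Mycn were near 0, at 0.0558 and 0.0156 FPKM on average. Of the 13 genes 10 were expressed.

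Fibroblast and mesenchyme markers were mostly present, with 26 of 32 expressed and a median of 36.4 FPKM over all of them. The markers Eef1a1, Actb and Fn1 had 4474, 1341 and 220 FPKM on average, the first 2 of which are high in nearly every cell type. S100a4 (FSP1) averaged 582 ± 76.1 FPKM, P4ha1, the catalytic subunit of prolyl 4-hydroxylase, 50.7 ± 2.74 FPKM, the hyaluronan receptor Cd44 46.4 ± 1.56 FPKM and Ddr2, a receptor for fibrillar collagen, 42.7 ± 4.59 FPKM (SD, n = 3). Col6a2 was at 31.0 FPKM. Between 1 and 10 FPKM lay Twist1, Fbn1, Cdh2, Prrx1, Pdgfrb, Pdgfra, Dcn and Col3a1. Dcn (decorin), a proteoglycan of connective tissue, read 2.57, 2.55 and 1.74 FPKM.

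6 markers stayed below 1 FPKM in every library. Thy1, a surface glycoprotein often used to sort fibroblasts, and Lum were listed at 0 in all 3 libraries. Fap, a surface protease of activated fibroblasts, had a reading in library 1 only, 0.0476 FPKM. Postn averaged 0.0615, Cdh11, mesenchymal cadherin, 0.17 and Nt5e (CD73) 0.682 FPKM. Vimentin, type I collagen, Sparc and fibronectin were thus high, while these 6 markers were under the expression threshold.

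Markers of other cell types were sparse. Of 95 such markers, 13 were expressed and 50 were listed at 0. None of the 10 endothelial and none of the 10 pluripotent or germ cell markers was expressed, and the highest of them were Eng at 0.747 and Kdr at 0.0984 FPKM and Nanog at 0.262 and Ddx4 at 0.0462 FPKM on average. Among epithelial markers Krt19, a keratin, read 88.0, 104 and 89.9 FPKM and Krt18 32.4, 43.8 and 38.8 FPKM. Krt8, the usual partner of Krt18, averaged 0.191 FPKM, and Epcam, Krt5 and the claudins Cldn3, Cldn4 and Cldn7 were listed at 0. The summed epithelial level was 121 to 148 FPKM over the libraries, nearly all of it from these keratins. In bulk RNA, few cells with a high level and many with a low level cannot be told apart.

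Nes (nestin), an intermediate filament of neural progenitors that cultured mesenchymal cells also make, read 73.1, 76.2 and 74.6 FPKM, followed by Tubb3 at 8.51 ± 0.38 FPKM, while Sox10, Olig2, Snap25, Nefl and Rbfox3 were listed at 0. Cd68, a lysosomal protein used as a macrophage marker, averaged 5.31 ± 0.60 FPKM and Fcer1g, an Fc receptor subunit, 0.383 FPKM, with Ptprc, Adgre1 and Itgam at 0. Smtn (smoothelin) and Cspg4 (NG2), markers of smooth muscle and pericytes, averaged 15.7 ± 0.38 and 5.14 ± 1.13 FPKM, and the smooth muscle myosin Myh11 0.0376 FPKM. Pparg, the adipogenic nuclear receptor, averaged 9.59 ± 0.37 FPKM, while Adipoq, Lpl and Lep were listed at 0 and Fabp4 read 1.17 FPKM. Alpl and Sox9, of the skeletal lineages, averaged 7.73 ± 0.21 and 6.45 ± 0.60 FPKM, with Acan at 0. Of the skeletal muscle markers Des averaged 1.74 and Acta1 0.0809 FPKM, and Myod1 and Myog were listed at 0.

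**Figure D3:**
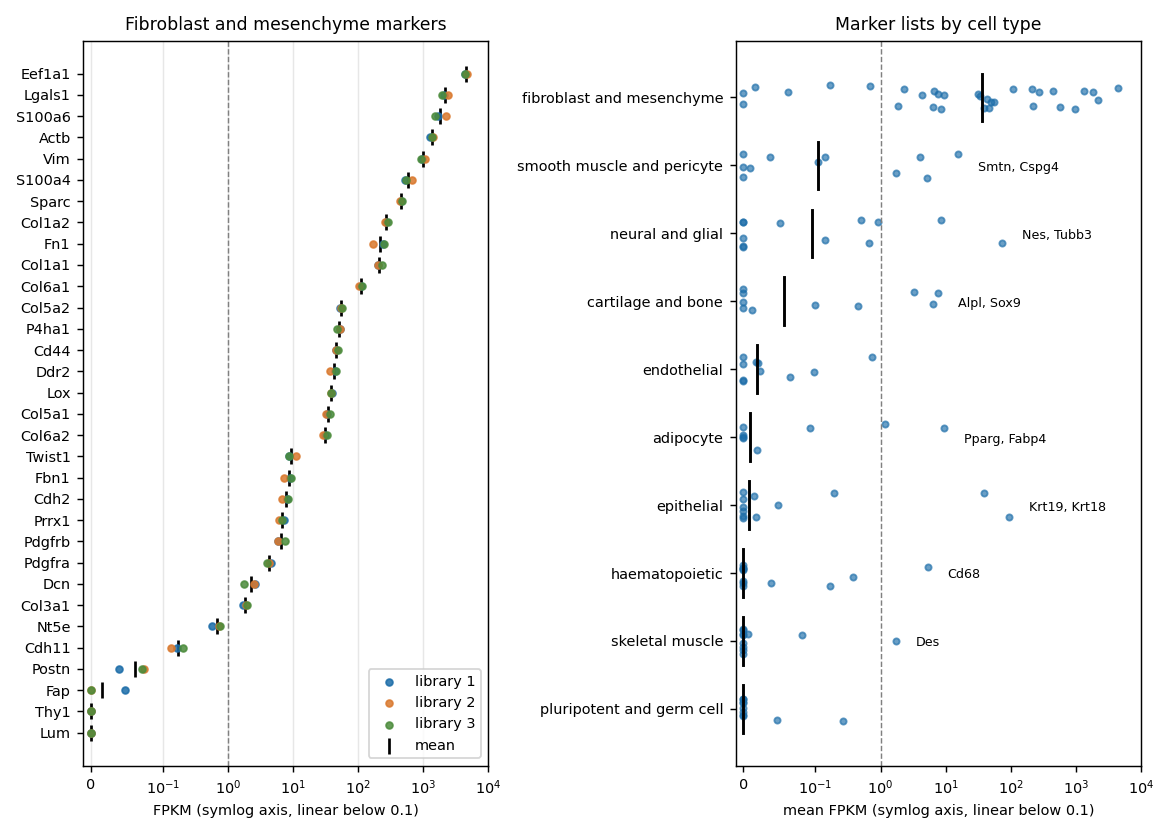
Left, FPKM of 32 fibroblast and mesenchyme markers in each of the 3 libraries, with a bar at the mean; right, mean FPKM of every marker on 10 cell type lists, with list medians as black bars and the highest members named where they reach 1 FPKM. Both axes are linear below 0.1 and logarithmic above, and the dashed line is 1 FPKM. The fibroblast list has a median of 36.4 FPKM, and every other list has a median under 0.2 FPKM.

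The genes that the deposited table assigns to a transcription factor family numbered 1463, of which 687 (47.0%) were expressed. Protein-coding genes without a family were expressed in 9114 of 20548 cases (44.4%). Expressed factors were lower, with a median of 5.68 FPKM against 12.6 FPKM for the others. All factors together held 2.03% ± 0.11 of the summed FPKM (SD, n = 3). Of 71 families 60 had an expressed member, 212 factors reached 10 FPKM and 11 reached 100 FPKM.

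Atf4, the bZIP factor of the integrated stress response and amino acid supply, was the highest factor with 344, 400 and 356 FPKM. Ybx1, a cold shock domain protein that binds mRNA as well as DNA, read 334, 354 and 315 FPKM and overlapped with Atf4. Id3, an inhibitor of bHLH factors that lacks a DNA-binding region, read 228, 290 and 240 FPKM, and its relatives Id1 and Id2 averaged 107 ± 11.2 and 107 ± 5.77 FPKM. Ybx3 averaged 218 ± 11.5 FPKM. Ssrp1, a subunit of the histone chaperone FACT, was at 183 ± 6.20 FPKM and Hmgb2, a chromatin protein of dividing cells, at 177 ± 17.3 FPKM. Glmp, a lysosomal membrane protein placed in the NCU-G1 family by the table, and Tfdp1, the dimer partner of E2F factors, averaged 112 ± 3.62 and 109 ± 3.13 FPKM.

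Junb, an AP-1 factor, averaged 102 ± 7.12 FPKM and Egr1, an immediate early zinc finger factor induced by serum, 92.9 ± 6.0 FPKM, level with Trp53. Lower among the 20 highest, Mbd3, Nfkb2, Smarce1, E2f4, Nfe2l1 and Carhsp1 lay between 59.1 FPKM for Carhsp1 and 85 FPKM for Mbd3. Of 19 neighbouring pairs among these 20 factors 12 overlapped over the libraries, and 18 of the 20 were in the top 20 of every library. Several are RNA-binding or chromatin proteins rather than factors that read a DNA sequence.

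Families differed in how many of their members were on, beside 47.0% of all factors. The shares of the C2H2, HMG, ETS and THR-like families lay near that value. C2H2 zinc fingers were the most numerous, with 284 of 557 expressed, but at a low median of 3.54 FPKM, and Egr1 was their highest. Homeobox genes were mostly off, with 39 of 225 expressed and Prrx2, a mesenchymal homeobox gene, the highest at 15.2 ± 2.34 FPKM (SD, n = 3). Among bHLH factors 38 of 107 were expressed, led by Id3, and among bZIP factors 33 of 52, led by Atf4. ZBTB factors were on in 36 of 48 cases, led by Zbtb7b at 15.2 FPKM, and Myb-domain genes in 24 of 28, led by Smarcc1, a chromatin remodelling subunit, at 46.7 FPKM. Foxm1, which drives mitotic genes, was the highest of 18 expressed Fork_head genes of 44, at 47.6 ± 5.81 FPKM. HMG genes were on in 27 of 51 cases, and ETS factors in 14 of 27, led by the repressor Erf at 21.7 FPKM. Nuclear receptors of the THR-like group were on in 10 of 20 cases, led by the retinoic acid receptor Rarg at 55.7 ± 1.26 FPKM.

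All members were expressed in 4 families of at least 5 genes: the E2F family with 10 of 10, the MH1 (Smad) family with 8 of 8, THAP with 7 of 7 and zf-MIZ with 6 of 6. Smad3, a transducer of TGF-beta signals, was the highest Smad at 16.4 ± 2.04 FPKM. In the Rel family (RHD) 8 of 10 were on, led by Nfkb2 at 70.2 ± 2.67 FPKM, and in the zf-GATA family 8 of 14, led by Mta2, a subunit of the NuRD complex, at 46.9 ± 3.17 FPKM. The MBD family had 8 of 9 on, led by Mbd3 at 85 FPKM, and ARID 8 of 11, led by Arid1a at 15.1 FPKM.

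**Figure D4:**
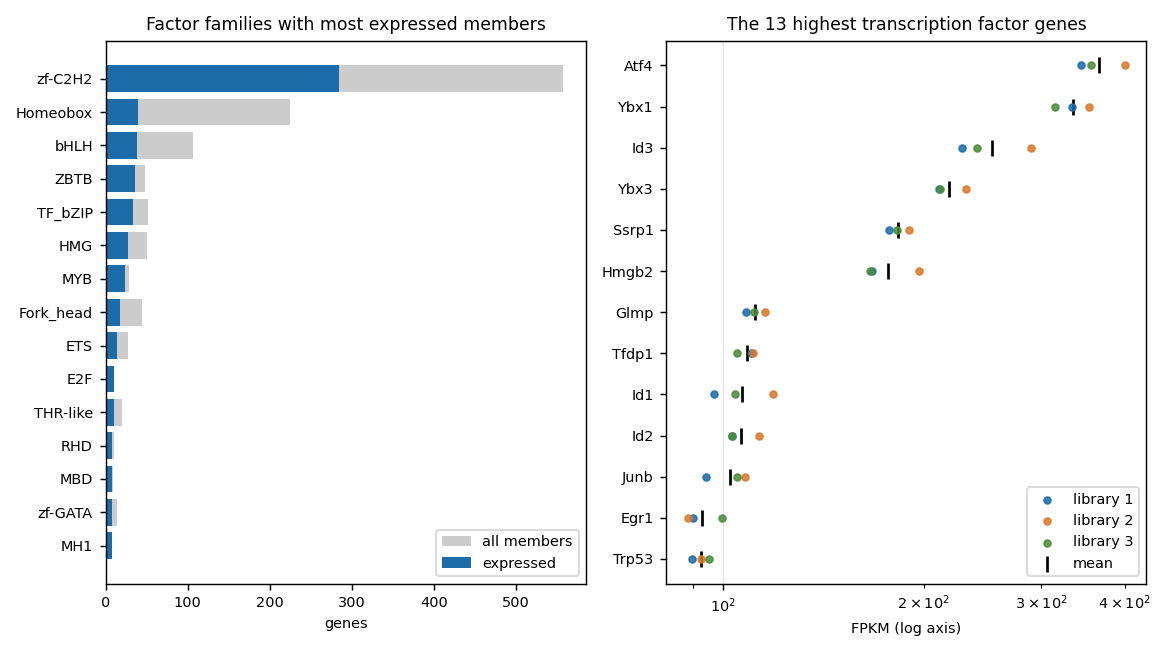
Left, the number of genes in the 15 transcription factor families with most expressed members, grey for all members and blue for those expressed; right, FPKM of the 13 highest factor genes in each of the 3 libraries on a log axis, with a bar at the mean. The C2H2 family has 284 of 557 members expressed and the Homeobox family 39 of 225, beside 47.0% of all factors. Atf4 and Ybx1 stand above 300 FPKM in each library.

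Factors of mesenchymal identity were present at modest levels, with 27 of 38 expressed at a median of 3.70 FPKM. After the Id genes came Tbx15, a T-box factor of limb and craniofacial mesenchyme, at 29.3 ± 1.80 FPKM, Twist2 at 28.2 ± 2.79 FPKM and, among the factors of epithelial to mesenchymal transition, Snai1 at 9.70 ± 0.33, Twist1 at 9.40 ± 1.33 and Zeb1 at 8.64 ± 0.65 FPKM (SD, n = 3). Tcf21, Meox2, Tbx5, Msx1 and Msx2 were listed at 0. Among AP-1, SRF and TEAD pathway genes, 18 of 22 were expressed, with Yap1, the effector of Hippo signalling, at 302, 293 and 308 FPKM and Tead2 at 57.0 ± 3.73 FPKM. Jund, often constitutive, read 0.399, 0.433 and 0.359 FPKM. Its listed length of 5756 bases exceeds its span from start to end, which lowers this level.

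Hox genes, which keep a record of position along the body, were expressed in 12 of 39 cases, and those 12 came from the HoxA and HoxD clusters. Hoxa10 read 13.3, 15.1 and 11.7 FPKM, Hoxa11 9.51, 11.3 and 8.35 FPKM, Hoxa9 9.42, 10.1 and 9.35 FPKM and Hoxa7 3.81, 3.57 and 4.43 FPKM. Hoxd8 and Hoxd13 averaged 3.52 and 3.14 FPKM. The highest gene of the HoxB cluster was Hoxb9 at 0.929 FPKM, and that of the HoxC cluster Hoxc10 at 0.199 FPKM.

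The level of a typical expressed gene was steady between libraries. The median coefficient of variation (CV, the SD over the mean) was 7.82% over 9800 expressed protein-coding genes, where counting alone would give a median of 5.33%. From 10 to 100 FPKM the median CV was 6.41% with 4.10% from counting, and at 1000 FPKM and more 10.1% with 0.976% from counting. Of 5412 expressed protein-coding genes with a mean of at least 10 FPKM, 75.1% had a CV under 10% and 14 had a CV over 50%.

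Among these 5412 genes, which reached 1 FPKM in every library, the largest spreads were set by a single library in several cases. Ppp1ca, a catalytic subunit of protein phosphatase 1, read 2.53, 1.96 and 56.7 FPKM, on 51, 43 and 1270 counts. Atp5a1, the alpha subunit of mitochondrial ATP synthase, read 1.72, 1.64 and 31.6 FPKM. Both were high in library 3 alone, while their libraries 1 and 2 lay close together. Rps10, of the small ribosomal subunit, read 20.3, 217 and 18.6 FPKM, high in library 2 alone. Rps18 read 171, 42.8 and 17.6 FPKM, and Rps28 7.88, 194 and 153 FPKM, so library 1 was the highest for Rps18 and the lowest for Rps28. The others among the 10 most variable of these genes were Tinagl1, Snrpc, Hmgn1, Coro1b and Gstp1, with CVs between 62.8% and 92.9%. Counting alone would give these 10 genes a CV between 2.81% and 6.24%.

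Several of these genes have near-identical copies, chosen for display after their values were seen. Ppia, cyclophilin A, read 1142, 1381 and 1813 FPKM and its processed copy Gm10123 on chromosome 9, of the same length of 736 bases, read 569, 623 and 173 FPKM. The CV was 23.5% for Ppia and 53.9% for Gm10123, and 8.65% for their sum. For Rps10 with Rps10-ps2, Rps18 with Gm11361, and Rps28 with Gm10443, the CV of the sum was 42.3%, 31.3% and 45.6%. The genes alone had CVs of 134%, 107% and 82.7%, and the copies 15.1%, 11.0% and 28.1%. These genes have 1394, 1979 and 1321 bases and their copies 572, 524 and 310. A shared read thus weighs differently in each, and these sums cannot show whether reads were divided between gene and copy. How reads that fit several places were assigned is not given in the sources used here, so levels of these genes are uncertain.

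**Figure D5:**
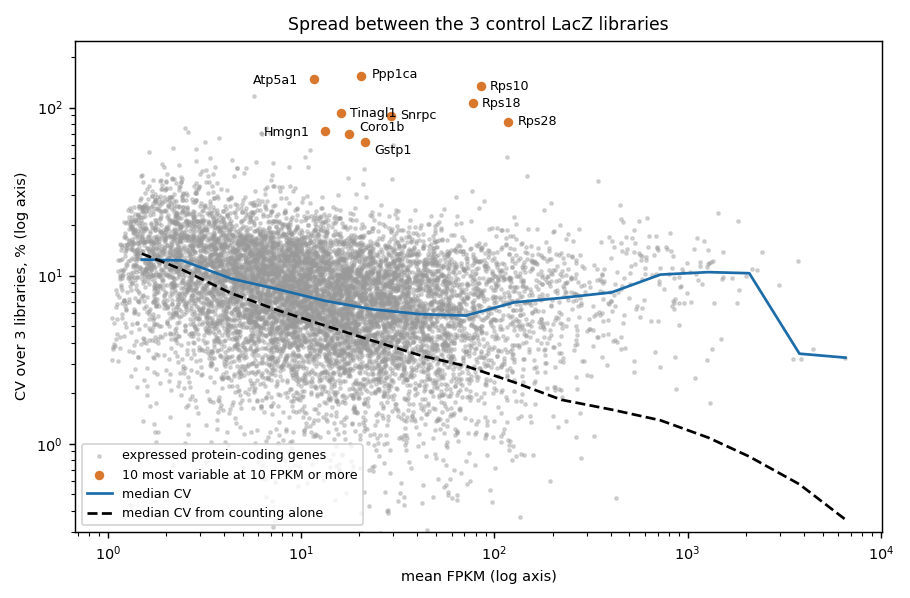
CV over the 3 libraries against mean FPKM, both on log axes, for 9800 expressed protein-coding genes in grey, with the 10 most variable of them at 10 FPKM or more in orange. The median CV (blue) lies near the median from counting alone (dashed) at low levels and above it from 10 FPKM upwards.

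Another readout of the series, which played no part in choosing these libraries, is binding of c-MYC in other cultures of Hsf1 WT fibroblasts given ethanol as vehicle, measured by CUT&RUN, where an antibody-tethered nuclease releases DNA next to the bound protein. The authors' list holds 220037 peaks with a median length of 1835 bases, which together cover 510 Mb, and carries no replicate error. A peak lay within 1000 bases of the start of 90.1% of protein-coding genes at 100 to 1000 FPKM (95% Wilson interval 87.5 to 92.3%) and of 97.2% of those at 1000 FPKM and more (85.8 to 99.5%). The share was 86.9% from 10 to 100 FPKM, 75.3% from 1 to 10 FPKM, 52.4% under 1 FPKM and 33.3% for genes listed at 0, with 59.3% over all 21879 genes. At the opposite end of the genes the share also varied with level, from 32.5% for genes listed at 0 to 61.7% at 100 to 1000 FPKM and 77.8% at 1000 FPKM and more.

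Genes of transcription factors had a peak at the start in 81.6% of 686 expressed cases and 43.3% of 767 not expressed. Over all protein-coding genes the share was 75.3% from 1 to 10 FPKM and 86.9% from 10 to 100 FPKM. It was 52.4% under 1 FPKM and 33.3% for genes listed at 0, so the shares of the factors lay within those of genes at such levels. Ribosomal protein genes had one in 75 of 82 cases (91.5%) and chaperones in 29 of 30 (96.7%). Collagens had one in 25 of 37 (67.6%) and matrix glycoproteins in 25 of 39 (64.1%), beside 59.3% of all genes. These lists differ in level, and their shares were not matched for it. Fn1, Actb, Eef1a1, Col1a1, Col1a2, Vim, Myc, Hsf1 and Kat2a each had a peak within 1000 bases of the start. So did Thy1, Tagln and Postn, which were at or near 0 in RNA, whereas Lum and Fap had none. Peaks and levels came from different cultures, and a peak near a start is not a measure of regulation.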

How the data were processed

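RNA-seq of the 3 control LacZ libraries was analysed from tables that the authors deposited. Per the submitters' processing notes, reads were mapped with HISAT2 (RNA) and Bowtie2 (CUT&RUN) on GRCm38 or mm10, and DESeq2 and SEACR were used. For these libraries, the sources used here name no counting program, strand setting or library kit. The counts deposited are whole reads per gene, unnormalised. The deposited FPKM values were found to equal count over gene length and a library denominator, which was 0.984 to 1.01 times the column sum of counts. Peaks carry the authors' signal, the coverage summed over each peak, and were called per genotype; whether replicates were pooled is not stated. The 9 library columns of other groups were not used. ERCC rows (92) took 0.711 to 1.19% of counts and stayed out of all sums.

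From these, gene levels were averaged over libraries with Python 3.11.15, pandas 2.3.3 and scipy 1.17.1, and scaling factors came from edgeR 4.0.16 and DESeq2 1.42.0 in R 4.3.3. Symbols matched RefSeq GRCm38.p6 for 40306 genes, and promoter sequences are RefSeq's. The level calculation was tested on simulated data. No test between groups was made.

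Named genes are the 30 highest genes and the 20 highest transcription factors (some of which are not reported here), the highest member of the 12 families with most expressed members (ties included), the 10 highest entries that are not protein-coding, the 4 highest of each functional list, every fibroblast marker, the 2 highest markers of each other cell type and the 10 most variable expressed protein-coding genes of at least 10 FPKM. Other members of the lists were named after their values were seen. Members and lists were chosen with earlier results of these data known. The lists of mitochondrial aminoacyl-tRNA synthetases, of X and Y chromosome markers and of parent genes with copies were added after values were seen.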

Additional observations from a re-analysis of the deposited data

How the results depend on the processing

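Of 53 alternatives over 9 kinds of result, 40 left the value within 1.5 times the count or within the spread, and 13 moved it. The share of the 100 highest genes was 30.2% without the mitochondrial chromosome, 29.8% over protein-coding genes, 28.2% without Rn18s-rs5 and Lars2 (chosen after seeing the data) and 18.6% in counts. The protein-coding share was 95.6% without Rn18s-rs5 and Lars2 and 94.0% in counts; over protein-coding genes alone it is complete by construction and was not computed. The ribosomal protein share was 15.3% over protein-coding genes and 5.22% in counts. The median spread was 0.10 as an SD of log2(FPKM + 1) and 0.11 as an SD of log2(FPKM + 0.1), which are another unit than the CV. The share of genes at 100 to 1000 FPKM with a c-MYC peak was 92.4% within 2500 bases, 83.8% with the stronger peaks by signal and 61.7% at the gene end (added after seeing the data). Leaving out each library in turn gave 10844 to 10865 expressed genes, 692 to 701 transcription factors, 31.7 to 32.7% for the 100 highest genes, 90.3 to 90.8% for protein-coding genes, 13.3 to 14.3% for ribosomal proteins and 26 fibroblast markers each time. No paired analysis was possible because a single group was described and no result comes from a test. Depth limits low genes: at 7314882 to 8066371 counts a gene listed at 0 may lie anywhere under the floor of 3 counts.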

Other observations

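Long noncoding RNAs of growth control were led by hosts of small nucleolar RNAs. Of 33 noncoding RNAs on the list 20 were expressed, beside 1.63% of all long noncoding RNAs. The members were chosen with earlier results of these data known, so this count is not a result about such RNAs. Snhg1 averaged 231 ± 28.6 FPKM, Zfas1 163 ± 35.5 FPKM and Gas5 93.4 ± 8.0 FPKM, and the nuclear RNA Malat1 74.5 ± 10.9 FPKM (SD, n = 3). Imprinted noncoding RNAs were near 0: H19 had a reading in library 3 only, 0.0532 FPKM, and Meg3, Rian and Mirg were listed at 0.

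Xist, the RNA that coats the inactive X chromosome of female cells, read 24.0, 15.7 and 23.2 FPKM. The Y-linked genes Ddx3y, Eif2s3y, Kdm5d, Uty, Usp9y and Zfy1 were listed at 0 in all 3 libraries, and none of 266 protein-coding genes of the Y chromosome was expressed.

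The mRNAs of the mitochondrial genome fell into 2 sets. COX1, ND1, CYTB, ND2, ND5, ND4 and ND6 averaged between 859 and 6568 FPKM. COX2 averaged 56.5 ± 4.57, ATP6 24.0 ± 2.37, COX3 17.3 ± 1.91, ND3 10.2 ± 2.95, ND4L 7.92 ± 2.66 and ATP8 1.22 ± 1.57 FPKM (SD, n = 3). The cause of this gap was not tested.

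Lars2 averaged 2961 ± 259 FPKM (SD, n = 3), while the other 16 mitochondrial aminoacyl-tRNA synthetases lay between 1.44 FPKM for Ears2 and 29.6 FPKM for Iars2. The cause of the level of Lars2 was not tested.

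Of the 96 other entries matched to the GAPDH protein 11 were expressed. Pfn1 (profilin 1) and Tmsb4x (thymosin beta 4), which are abundant in most cells, read 7.78, 16.6 and 6.94 FPKM and 52.3, 55.1 and 46.8 FPKM. How shared reads were counted was not tested.

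3 genes with a mean of at least 10 FPKM were under 1 FPKM in a single library, and so were not counted among the expressed genes whose spread was ranked. Psmb6, a catalytic proteasome subunit, read 0.783, 43.0 and 30.9 FPKM. Ranbp1, a regulator of the Ran GTPase, read 56.3, 39.8 and 0.809 FPKM, and Atp6v1c1, a subunit of the vacuolar proton pump, 18.7, 0.356 and 11.3 FPKM.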
